A study of Mus musculus with 9 samples.

Results

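The expression of 9 genes of insulin and FOXO signalling was described in single-nucleus RNA sequencing (snRNA-seq) of mouse cortex and hippocampus. The genes were Igf1, Igf1r, Insr, Irs1, Irs2, Pik3ca, Foxo1, Foxo3 and Foxo6, chosen by their symbols among the 31053 genes listed in the data, and all 9 were found. The samples were 9 male C57BL/6 mice in 3 groups of 3, with 1 library per mouse. Young AAV-EGFP mice were 5 months old and aged AAV-EGFP mice 19 months old at collection, and all of these carried an adeno-associated virus (AAV) that expresses the fluorescent protein EGFP. Aged AAV-B3GNT3 mice, also 19 months old, carried the same vector with EGFP linked to B3GNT3, a glycosyltransferase of mucin-type O-glycan synthesis. All 9 mice had wild-type genotype and received their vector into the blood 8 weeks before collection. The study's methods give the National Institute on Aging colony as the source of aged mice and Jackson Laboratories as that of young mice. Age and source thus differ together in each comparison with young mice. The vector was in the PHP.V1 capsid under a short CLDN5 promoter, which is meant to restrict the transgene to brain endothelial cells (BECs). None of the 9 genes was targeted by the vector.

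Insulin and insulin-like growth factor 1 bind tyrosine kinase receptors on the cell surface, which phosphorylate the insulin receptor substrate adaptors. The adaptors recruit phosphoinositide 3-kinase, which activates AKT, and AKT phosphorylates FOXO transcription factors so that they leave the nucleus. When the signal is low, FOXO proteins stay in the nucleus and activate genes of stress resistance, autophagy and metabolism, among them genes of the insulin pathway itself. In the brain the pathway is known for its part in neuronal growth and survival, myelination and lifespan.

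The libraries held 6331 to 10264 barcodes and 47332047 to 79964605 UMIs each (unique molecular identifiers, 1 per captured transcript), and 70274 of 77823 barcodes were kept. Nuclei fell into 9 classes with enough nuclei in every sample, of 763 BECs to 20392 excitatory neurons. The marker list of each class summed to between 719 and 17202 CPM (counts per 1e+06 UMIs) in every sample of that class. Clusters were named by these same markers, so this level does not test the names. A further 126 nuclei were choroid plexus epithelial-like and were not tested. Other clusters were left unnamed and are in no class, such as 842 nuclei with macrophage markers beside those of microglia and oligodendrocytes. Orders among classes do not cover them. Clusters with striatal markers, 2058 Drd1 nuclei and 1653 Drd2 nuclei, were present although the labelled tissue is cortex and hippocampus, and they belonged to the inhibitory neuron class. Within neurons, 10 subclasses were named from markers, and they held 10556 of the 20392 excitatory nuclei and 7953 of the 8175 inhibitory nuclei, so that orders among neuron subclasses cover these 10 and not all neurons. The subclass called layer 6 here has the corticothalamic markers, but 1027 of its 3484 nuclei lay in a cluster led by other genes (Svil, Cobll1, Moxd1, Ctgf), with Cplx3 also among its leading genes. Ctgf and Cplx3 are known from the deepest neurons of that layer. No pair of libraries shared more than 37 barcodes. B3gnt3, as the mouse gene is listed, had 7 UMIs in BECs of aged AAV-B3GNT3 mice, 0 in aged AAV-EGFP mice and 11 in young AAV-EGFP mice, so that these counts do not check the vector. An estimate of free RNA was set from markers of other classes. In excitatory neurons it was lower in aged AAV-EGFP libraries than in young ones (5.11 to 7.31% of UMIs against 7.93 to 9.25%). In aged AAV-B3GNT3 libraries it was 6.93 to 12.1% in this class. Over all libraries the estimate was 16.7 to 38.01% in BECs, 16.6 to 35.2% in pericytes and 17.0 to 35.4% in oligodendrocytes. It was 11.1 to 26.6% in astrocytes and reached 43.8% in microglia. The levels by class below were not corrected for free RNA, and its part in low levels was not tested.

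Promoter sequences were examined because FOXO factors are known to bind near the start of their target genes. RefSeq (GRCm38.p6) gave the 250 bases before and 50 bases after the start for 7 of the 9 genes, and for Foxo6 and Insr no sequence was used here. The core FOXO motif GTAAACA, searched on both strands, was in 3.65% of 32851 mouse promoters of this length and in 0 of the 7. The insulin response element CAAAACAA, also searched on both strands, was in 2.51% of the promoters and in 2 of the 7, those of Irs1 and Irs2. The 2 windows are shown 5′ to 3′ along the gene, with the element in capitals, read as TTGTTTTG because it lies on the other strand. The Irs1 window is chr1:82291390-82291689 on the minus strand.
Irs1: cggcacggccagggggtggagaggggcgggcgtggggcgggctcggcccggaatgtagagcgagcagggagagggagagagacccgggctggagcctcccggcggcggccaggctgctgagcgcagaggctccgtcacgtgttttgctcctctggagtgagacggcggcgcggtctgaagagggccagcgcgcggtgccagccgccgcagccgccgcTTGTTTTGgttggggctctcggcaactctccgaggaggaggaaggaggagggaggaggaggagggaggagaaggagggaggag
The Irs2 window is chr8:11008880-11009179, also on the minus strand.
Irs2: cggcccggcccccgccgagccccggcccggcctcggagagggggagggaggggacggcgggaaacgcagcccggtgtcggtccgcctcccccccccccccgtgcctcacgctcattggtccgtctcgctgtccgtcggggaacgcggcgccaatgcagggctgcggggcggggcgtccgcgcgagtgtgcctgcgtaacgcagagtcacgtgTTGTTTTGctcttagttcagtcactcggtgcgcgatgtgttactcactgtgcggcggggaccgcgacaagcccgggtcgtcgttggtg
The element begins 33 bases before the RefSeq start in Irs1 and 38 bases before it in Irs2. These starts lie upstream of the ends of the GENCODE gene spans given further on, by 23 bases in Irs1 and by 471 bases in Irs2, so the Irs2 window does not reach into its GENCODE span. Both windows are rich in G and C, 71.3% and 72.0% against a median of 52.7% over all promoters. A match describes the letters of the window and does not show that a factor binds there.

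Igf1 encodes insulin-like growth factor 1, the ligand of Igf1r, and lies on chromosome 10 at 87858265 to 87937042 of GRCm38, on the plus strand. Among the 9 classes its level was highest in inhibitory neurons, with 99.2 ± 15.4 CPM (SD, n = 9 samples). No sample of another class reached the lowest inhibitory neuron sample (81.8 CPM). Fibroblasts followed with 32.8 ± 21.3 CPM and microglia with 10.2 ± 7.54 CPM, and these ranges overlapped. In the other 6 classes the mean was between 3.18 and 4.36 CPM, and all neighbours in that order overlapped. Among inhibitory neurons, those with Vip-interneuron markers had 508 ± 95.4 CPM and those with Lamp5 markers 211 ± 49.2 CPM, without overlap between the Vip samples and the Lamp5 samples. Sst interneurons had 93.9 ± 30.8 CPM, Pvalb interneurons 15.8 ± 6.27 CPM, and striatal neurons 0.627 CPM (Drd1) and 1.19 CPM (Drd2). Over the 81 sums of 9 classes and 9 samples, the genes with the most similar pattern were Ankrd55 (r = 0.86), Pde11a (r = 0.77) and Actn2 (r = 0.75).

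Igf1r, the receptor of that ligand, spans chromosome 7 from 67952827 to 68233668 on the plus strand. BECs held by far the most, with 3506 ± 924 CPM (range 1861 to 4955 CPM), and every BEC sample lay above every sample of the other classes. Microglia were next with 673 ± 192 CPM, then fibroblasts, pericytes, astrocytes, oligodendrocytes, excitatory neurons and oligodendrocyte precursors, each overlapping with the next. Inhibitory neurons had the lowest mean, 213 ± 29.5 CPM. Among neurons, layer 6 neurons had 504 ± 78.7 CPM and upper-layer neurons 436 ± 71.9 CPM, and Sst interneurons had the least, 168 ± 37.7 CPM. The most similar patterns were those of Bmpr2 (r = 0.91), Kdr (r = 0.89) and Col4a3bp (r = 0.89). Kdr is a receptor of vascular growth factor and an endothelial gene.

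Insr encodes the insulin receptor and lies on chromosome 8 at 3122061 to 3279617, on the minus strand. Its level was also highest in BECs, with 630 ± 217 CPM, but the BEC range overlapped that of pericytes (331 ± 97.5 CPM). The other classes ran down without a gap from microglia (315 ± 36.9 CPM) to excitatory neurons (137 ± 8.39 CPM). Neuron subclasses differed little, with means from 167 CPM in Vip interneurons to 108 CPM in layer 4 and 5 intratelencephalic neurons. The latter stood below upper-layer neurons (134 ± 10.6 CPM) without overlap. Its most similar patterns were Nfkbia (r = 0.87), Gnai2 (r = 0.86) and Elk4 (r = 0.85).

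Irs1 and Irs2 encode the adaptors that link the receptors to phosphoinositide 3-kinase. Irs1 lies on chromosome 1 at 82233101 to 82291416 and Irs2 on chromosome 8 at 10984681 to 11008458, both on the minus strand. Irs1 was highest in fibroblasts (216 ± 68.2 CPM), followed by pericytes (101 ± 42.2 CPM) and astrocytes (77.3 ± 16.8 CPM), and it was lowest in microglia (14.98 ± 10.9 CPM). Irs2 had another order, with oligodendrocytes first (58.0 ± 5.96 CPM), astrocytes second (50.8 ± 20.4 CPM) and BECs last (15.8 ± 9.92 CPM). Neighbouring classes overlapped throughout for both genes. Among neurons, Irs1 was highest in Lamp5 interneurons (133 ± 43.7 CPM) and lowest in the Drd2 and Drd1 striatal neurons (6.47 ± 3.69 and 10.54 ± 3.41 CPM), and the Drd1 samples all lay below the upper-layer samples, which were next above them. Irs2 was highest in dentate granule neurons (30.7 ± 4.97 CPM) and lowest in layer 6 neurons (12.6 ± 3.32 CPM), with every neighbour overlapping. The genes most like Irs1 were Nedd4 (r = 0.82), Ptpn13 (r = 0.81) and Pard6g (r = 0.75). Those most like Irs2 were Tesk2 (r = 0.80), Rab11fip2 (r = 0.68) and Hipk2 (r = 0.68).

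Pik3ca encodes the catalytic subunit p110 alpha of phosphoinositide 3-kinase and lies on chromosome 3 at 32397671 to 32468486, on the plus strand. Pericytes had 256 ± 39.7 CPM, and their lowest sample (205 CPM) was above the highest microglia sample (204 CPM). Below the microglia, with 171 ± 21.9 CPM, the classes descended with overlap to excitatory neurons (85.3 ± 5.64 CPM). Srsf4 (r = 0.87), Sike1 (r = 0.86) and Ubr1 (r = 0.85) had the most similar patterns.

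The FOXO genes encode the transcription factors at the end of the pathway. Foxo1, on chromosome 3 at 52268336 to 52353221 (plus strand), was highest in astrocytes (423 ± 82.7 CPM), then in BECs (232 ± 44.3 CPM) and fibroblasts (210 ± 29.8 CPM). All fibroblast samples exceeded the inhibitory neurons (112 ± 23.2 CPM) that came next, and excitatory neurons had the lowest mean (26.0 ± 9.82 CPM). Among the 10 named neuron subclasses, Foxo1 was highest in striatal and dentate granule neurons, with 252 ± 51.9 CPM in Drd2 striatal, 225 ± 37.9 CPM in Drd1 striatal and 159 ± 36.4 CPM in dentate granule neurons. All 3 stood apart from the other 7, in which Lamp5 interneurons had 60.6 ± 8.93 CPM and layer 6 neurons 4.18 ± 2.37 CPM. Msi2 (r = 0.82), Atl2 (r = 0.81) and Fam107a (r = 0.81) were most like it.

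Foxo3, on chromosome 10 at 42181841 to 42276755 (minus strand), was highest in microglia (294 ± 68.0 CPM), astrocytes (261 ± 67.6 CPM) and fibroblasts (258 ± 57.0 CPM), whose ranges overlapped. It was lowest in excitatory neurons (94.2 ± 22.6 CPM), which overlapped with oligodendrocyte precursors and oligodendrocytes. Its neuron subclasses lay between 71.7 CPM in Sst interneurons and 150 CPM in Drd1 striatal neurons, each overlapping with the next. Prkcd (r = 0.84), Trim12c (r = 0.82) and Vwa5a (r = 0.81) were most like Foxo3. Foxo6, on chromosome 4 at 120267079 to 120287349 (minus strand), is the FOXO gene best known from neurons. Excitatory neurons had the highest mean, 6.25 ± 2.004 CPM from 1388 UMIs, and oligodendrocytes had 4.33 ± 2.02 CPM from 199 UMIs, with overlapping ranges. In microglia and BECs it had 5 UMIs each over 9 samples and in pericytes 1. Drd2 striatal neurons had 11.8 ± 2.02 CPM, layer 6 neurons 9.30 ± 3.59 CPM and Pvalb interneurons 0.165 CPM. Rgs11 (r = 0.63) and Iqsec1 (r = 0.62) were among the genes most like Foxo6.

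**Figure D1:**
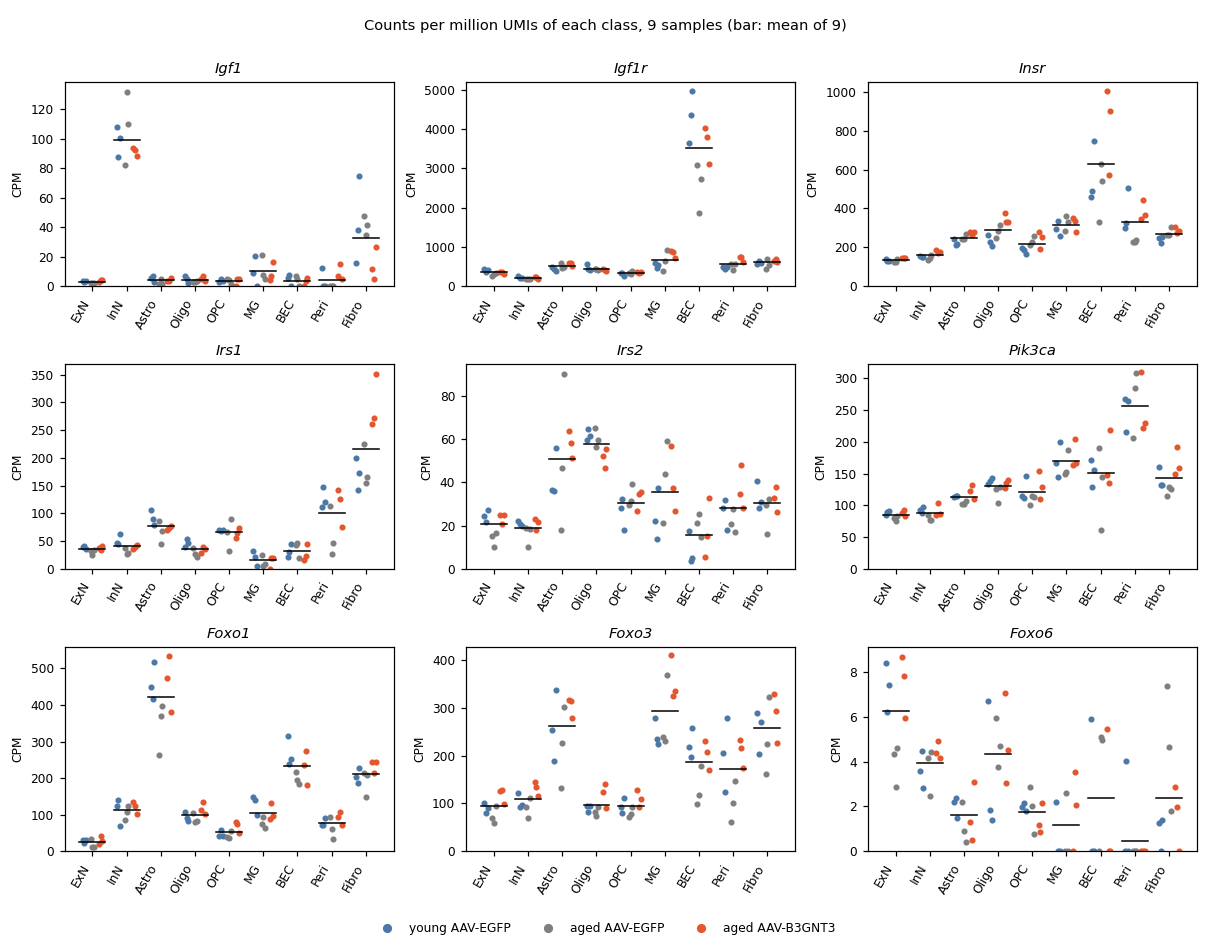
Level of each of the 9 genes in each of the 9 classes, as CPM of the UMIs summed per sample and class (linear axes), with 1 point per sample coloured by group and a bar at the mean of 9 samples. Igf1r stands apart in BECs (mean 3506 CPM) and Igf1 in inhibitory neurons (mean 99.2 CPM). ExN, excitatory neurons; InN, inhibitory neurons; Astro, astrocytes; Oligo, oligodendrocytes; OPC, oligodendrocyte precursors; MG, microglia; Peri, pericytes; Fibro, fibroblasts.

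**Figure D2:**
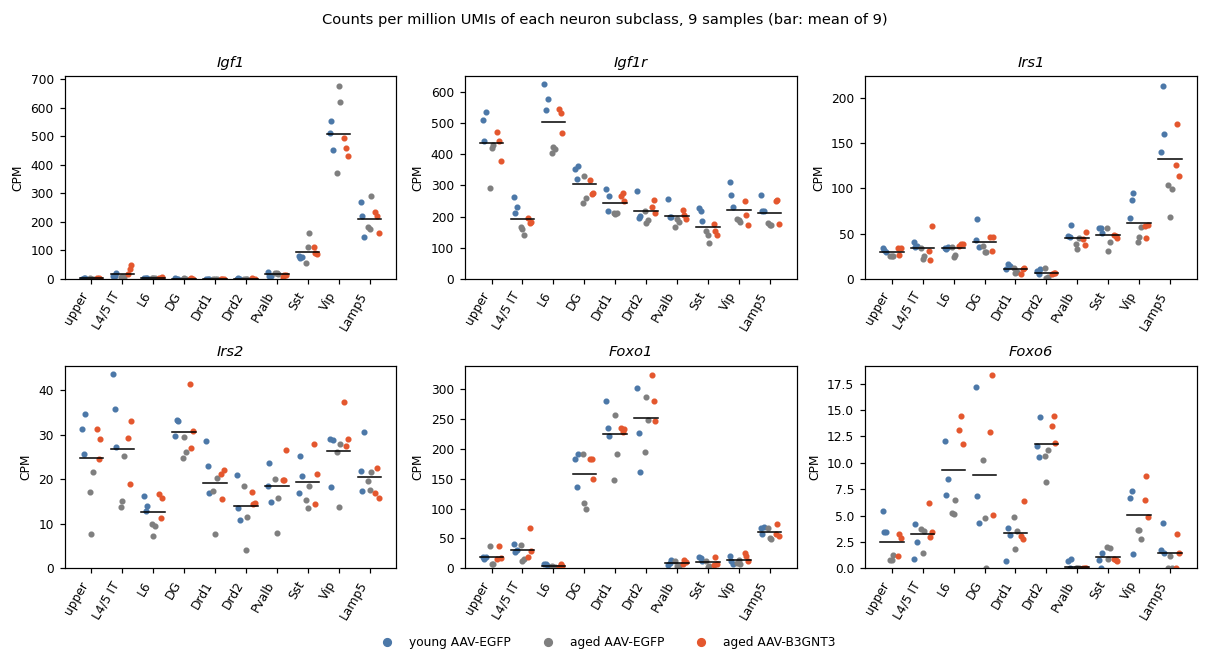
Level of 6 of the genes in the 10 neuron subclasses, as CPM (linear axes), with 1 point per sample and a bar at the mean of 9 samples. Igf1 is highest in Vip interneurons (mean 508 CPM), Irs1 in Lamp5 interneurons (133 CPM) and Foxo1 in striatal and dentate granule neurons (159 to 252 CPM). IT, intratelencephalic; L6, layer 6; DG, dentate granule.

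Levels were compared between genes after division by gene length. The counts come from 3′ chemistry with 1 UMI per captured transcript, and whether they rise with gene length was not tested. The undivided levels in excitatory neurons given above put Insr before Foxo3 and Foxo3 before Pik3ca. The span with introns was used first, which fits nuclear RNA if intronic reads were counted, and the sources used here do not say whether they were. In excitatory neurons Igf1r then had 1.26 CPM per kb, Pik3ca 1.20, Foxo3 0.993, Insr 0.870 and Irs2 0.867 CPM per kb. Irs1 had 0.607, Foxo6 0.308, Foxo1 0.306 and Igf1 0.0404 CPM per kb. By the length of the exons alone the order was another one, with 21.1 CPM per kb for Igf1r, 12.4 for Foxo3, 9.98 for Insr, 9.38 for Pik3ca and 3.87 for Irs1. Irs2 then had 3.26, Foxo1 2.995, Foxo6 2.39 and Igf1 0.321 CPM per kb of exon. Igf1r came first and Igf1 last by both lengths. The places of the others depend on the length used and on whether levels are divided at all. In BECs Igf1r had 12.5 CPM per kb of span and Insr 4 CPM per kb of span. These class levels are descriptions over samples, with no test, because the classes were made by clustering the same nuclei, and Foxo1 and Igf1 were among the variable genes used for that. Foxo1, Insr, Irs1 and Igf1 each overlap a gene on the other strand, and whether the counting used strand was not checked.

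The first comparison, aged AAV-EGFP against young AAV-EGFP mice, is called ageing here. Age and source of the mice differ together in it and cannot be told apart. Of 67 tests of a member in a class, 6 were called, all lower in aged mice, while 8.08% of all tests of genes in these classes were called, 4.14% higher and 3.94% lower. The groups did not overlap in 23 of the 67, against 28% of all tests. Of these 6 calls, 4 were in excitatory neurons, where 14.1% of genes were called and the groups of 36% did not overlap, and they were Irs2, Foxo6, Igf1r and Irs1. Irs1 was also lower in inhibitory neurons (3.82% of genes called, 26.7% without overlap) and in oligodendrocytes (20% called, 37.9% without overlap). In excitatory neurons 9 of 9 members had a fold change below 0, with a median log2 fold change of -0.44 against 0.02 over all 16906 genes tested. Levels in the comparisons between groups are CPM after scaling by the trimmed mean of M values (TMM), and all adjusted p values are from edgeR's quasi-likelihood test with Benjamini-Hochberg adjustment over all genes of the class.

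Irs2, the adaptor, had 24.9, 23.5 and 28.5 CPM in the excitatory neurons of young mice and 15.9, 11.1 and 15.5 CPM in those of aged AAV-EGFP mice. All aged samples lay below all young samples. The log2 fold change was -0.86 ± 0.15 (SE, edgeR adjusted p = 0.0087), and it passed the threshold under all 17 alternative settings, from -0.95 to -0.71. Foxo6 had 8.48, 6.71 and 7.77 CPM in young mice and 4.56, 3.15 and 4.30 CPM in aged AAV-EGFP mice, from 587 and 313 UMIs. The groups did not overlap here either, and the log2 fold change was -0.94 ± 0.20 (edgeR adjusted p = 0.0136). It passed under 15 of 17 settings, and the exceptions were the fits without young AAV-EGFP replicate 3 (adjusted p = 0.0582) and without aged AAV-EGFP replicate 2 (adjusted p = 0.0586).

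Igf1r, the receptor, had 432, 401 and 441 CPM in excitatory neurons of young mice and 276, 349 and 313 CPM in those of aged AAV-EGFP mice. All aged samples were lower, with a log2 fold change of -0.44 ± 0.11 (edgeR adjusted p = 0.0222). The call was lost without young AAV-EGFP replicate 1 (adjusted p = 0.0551), without young AAV-EGFP replicate 3 (adjusted p = 0.0922) and without aged AAV-EGFP replicate 3 (adjusted p = 0.0561). Irs1 had 38.9, 44.5 and 38.3 CPM in young mice and 33.7, 27.8 and 31.3 CPM in aged AAV-EGFP mice. Its log2 fold change was -0.39 ± 0.12 (edgeR adjusted p = 0.0451), and this was the least stable of the calls in excitatory neurons, held by 9 of 17 settings and by 3 of the 9 fits that left out a sample (from -0.43 to -0.32 where it was lost). With young AAV-EGFP replicate 1, 2 or 3, aged AAV-EGFP replicate 2 or 3 or aged AAV-B3GNT3 replicate 1 left out, its adjusted p was 0.0742, 0.141, 0.0992, 0.154, 0.103 and 0.0653, in that order.

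In inhibitory neurons Irs1 had 46.0, 47.8 and 63.9 CPM in young mice and 38.9, 29.5 and 27.3 CPM in aged AAV-EGFP mice, a log2 fold change of -0.72 ± 0.16 (edgeR adjusted p = 0.0338). In oligodendrocytes it had 39.0, 54.6 and 49.2 CPM in young mice and 38.5, 28.3 and 22.0 CPM in aged AAV-EGFP mice, a log2 fold change of -0.69 ± 0.21 (edgeR adjusted p = 0.0363). The groups did not overlap in either class, but in oligodendrocytes the highest aged and the lowest young sample nearly met. Each call was lost without young AAV-EGFP replicate 3 (adjusted p = 0.122 and 0.0909), without aged AAV-EGFP replicate 2 (0.126 and 0.0957) and without aged AAV-EGFP replicate 3 (0.138 and 0.136). The inhibitory call was also lost without young AAV-EGFP replicate 1 (0.0586), and the oligodendrocyte call without young AAV-EGFP replicate 2 (0.128). With only the compared groups in the fit, the adjusted p was 0.05003 in inhibitory neurons and 0.0515 in oligodendrocytes, which also missed the threshold. Striatal nuclei, which had little Irs1, made up 40.1, 55.5 and 27.7% of inhibitory nuclei in young and 48.8, 39.2 and 54.5% in aged AAV-EGFP mice, and the young sample with the most Irs1 had the lowest of these shares. A fit without them was added after the data were seen, in which 4.98% of genes were called with ageing and 2.09% with treatment. Irs1 then had 67.7, 90.4 and 82.9 CPM in young and 61.3, 43.9 and 54.8 CPM in aged AAV-EGFP mice, without overlap, and a log2 fold change of -0.60 ± 0.14 (adjusted p = 0.0259). Igf1r, not called over the whole class (-0.34, adjusted p = 0.103), was also lower with ageing in that fit (-0.44 ± 0.11, adjusted p = 0.0374).

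The other members of excitatory neurons did not pass. Foxo3 had 94.8 ± 7.12 CPM in young and 75.9 ± 11.5 CPM in aged AAV-EGFP mice (SD, n = 3 each), a log2 fold change of -0.32 ± 0.13 (edgeR adjusted p = 0.111). Igf1 had 3.53 ± 0.0461 CPM against 2.37 ± 0.0427 CPM, a log2 fold change of -0.58 ± 0.19 (adjusted p = 0.0632), with no overlap but from 272 and 190 UMIs. Insr was nearly level, with a log2 fold change of -0.07 ± 0.08 (adjusted p = 0.591), and Pik3ca was at -0.19 ± 0.09 (adjusted p = 0.162). Foxo1 had 32.1, 25.2 and 32.0 CPM in young mice and 35.2, 12.9 and 11.7 CPM in aged AAV-EGFP mice, so that 1 aged sample was the highest and the others were the lowest of these 6. Its log2 fold change of -0.59 ± 0.36 (adjusted p = 0.281) became -1.27 (adjusted p = 0.0067) without aged AAV-EGFP replicate 1. Dentate granule neurons, which were rich in Foxo1, made up 5.53 to 8.29% of excitatory nuclei in young, 3.04 to 7.42% in aged AAV-EGFP and 2.80 to 13.3% in aged AAV-B3GNT3 mice. A fit without them was added after the data were seen and gave 25.03, 20.3 and 20.5 CPM in young and 26.2, 9.62 and 9.90 CPM in aged AAV-EGFP mice, with a log2 fold change of -0.54 ± 0.37 (adjusted p = 0.330). The same aged sample was thus the highest without them. The ageing calls of Irs2, Foxo6, Igf1r and Irs1 passed in that fit too (adjusted p = 0.0080, 0.0104, 0.0181 and 0.0431, with 14.6% of genes called).

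**Figure D3:**
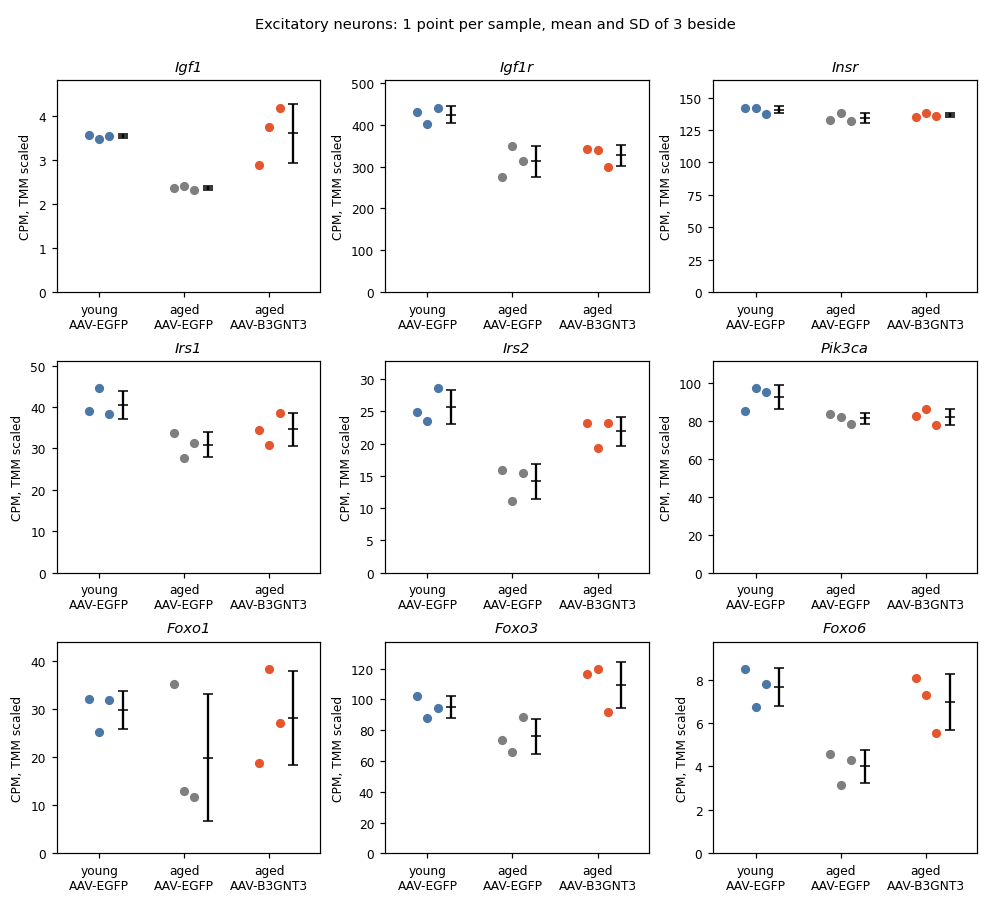
TMM-scaled CPM of the 9 genes in excitatory neurons by group (linear axes from 0), with 1 point per sample and, beside them, the mean and SD of 3. Irs2, Foxo6, Igf1r and Irs1 are lower in all aged AAV-EGFP samples than in all young AAV-EGFP samples, and Foxo3, Foxo6, Irs2 and Igf1 are higher in all aged AAV-B3GNT3 samples than in all aged AAV-EGFP samples.

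Other values of the same libraries are given beside the levels of the members. In excitatory neurons the summed level of the 6 oligodendrocyte markers, a sign of free RNA, was 191 to 228 CPM in young, 111 to 145 CPM in aged AAV-EGFP and 187 to 227 CPM in aged AAV-B3GNT3 mice, and 0 of the 6 were at 0. After free RNA was subtracted, Irs2 (-0.90, edgeR adjusted p = 0.0099), Foxo6 (-0.98, adjusted p = 0.0141) and Igf1r (-0.46, adjusted p = 0.0223) still passed. Irs1 did not pass in excitatory neurons (-0.39, adjusted p = 0.0560), inhibitory neurons (-0.75, adjusted p = 0.0517) or oligodendrocytes (-0.78, adjusted p = 0.107). The share of excitatory nuclei in layer 6 neurons was 16.9 to 17.9% in young and 13.6 to 22.9% in aged AAV-EGFP mice, and values within subclasses are given after the comparisons.

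Apart from Foxo6, which was highest and called in excitatory neurons, no member was called with ageing in its class of highest level. Igf1r in BECs had 4147, 4988 and 5685 CPM in young mice and 3624, 2324 and 3299 CPM in aged AAV-EGFP mice, without overlap, and its log2 fold change was -0.68 ± 0.25 (edgeR adjusted p = 0.274). In BECs 0.0214% of 4663 genes were called and 14.9% were without overlap, and each sample had 51 to 121 BEC nuclei. Foxo1 in astrocytes was at -0.45 ± 0.17 (adjusted p = 0.107) and Foxo3 in microglia at 0.15 ± 0.20 (adjusted p = 0.733). Insr in BECs was at -0.07 ± 0.32 (adjusted p = 0.957), Pik3ca in pericytes at 0.14 ± 0.22 (adjusted p = 0.795) and Igf1 in inhibitory neurons at 0.15 ± 0.15 (adjusted p = 0.583). Irs1 in fibroblasts was at 0.03 ± 0.21 (adjusted p = 0.962). Irs2 in oligodendrocytes was at -0.03 ± 0.12 (adjusted p = 0.874), and its samples lay between 60.1 and 66.5 CPM in young and between 60.01 and 66.5 CPM in aged AAV-EGFP mice. Over all classes, Foxo1 had a fold change below 0 in 9 of 9 classes and Foxo3 in 8 of 9, with none of these called. Pik3ca was below 0 in 8 of 9 classes, Irs1 in 6 of 7, Igf1 in 4 of 5 and Foxo6 in 2 of 3. Igf1r was below 0 in 5 of 9 classes (highest 0.27), Irs2 in 4 of 7 (highest 0.82) and Insr in 4 of 9. Classes share the libraries of the mice and are not separate replicates.

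The second comparison, aged AAV-B3GNT3 against aged AAV-EGFP mice, asks what the endothelial enzyme changed in aged brain. It shares its aged AAV-EGFP samples with the first comparison, so a low value in those samples lowers one fold change and raises the other. With edgeR 0 of 67 tests were called, against 2.25% of all tests of genes in these classes, 0.724% higher and 1.53% lower. The groups did not overlap in 14 of the 67, against 21.6% of all tests. At an unadjusted p under 0.05 there were 15 of 67, against 18.3% of all tests, and DESeq2 called 3, against 4.12%. The 3 were Irs2, Foxo6 and Foxo3 in excitatory neurons, where edgeR called 2.51% of genes and DESeq2 8.05%, and edgeR left each of them just short of the threshold. All 9 members had a fold change above 0 in excitatory neurons, with a median log2 fold change of 0.51 against 0.01 over all genes tested.

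Irs2 had 15.9, 11.1 and 15.5 CPM in the excitatory neurons of aged AAV-EGFP mice and 23.2, 19.3 and 23.2 CPM in those of aged AAV-B3GNT3 mice. The log2 fold change was 0.63 ± 0.15 (edgeR adjusted p = 0.05003, DESeq2 adjusted p = 0.0061). Foxo6 had 4.56, 3.15 and 4.30 CPM against 8.07, 7.31 and 5.56 CPM, a log2 fold change of 0.80 ± 0.20 (edgeR adjusted p = 0.0529, DESeq2 adjusted p = 0.0069). Foxo3, which encodes the FOXO factor linked to human longevity, had 73.8, 65.6 and 88.3 CPM against 116, 120 and 92.1 CPM, a log2 fold change of 0.53 ± 0.13 (edgeR adjusted p = 0.0537, DESeq2 adjusted p = 0.0094). In each of the 3 genes the groups did not overlap, as in 24.9% of all genes tested in this class. The treated Foxo3 sample nearest to the aged AAV-EGFP samples was replicate 3, and without it the log2 fold change was 0.64 (edgeR adjusted p = 0.0184).

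Each of the 3 passed edgeR's threshold with no filter on low counts (adjusted p = 0.0180 for Irs2, 0.0218 for Foxo6 and 0.0197 for Foxo3), and Irs2 also without doublet removal (0.0489). They passed as well without the dentate granule nuclei, a setting added after the data were seen (0.0498 for Irs2, 0.0477 for Foxo6 and 0.0498 for Foxo3, where 2.77% of genes were called). Each also passed in some fits that left out a sample. Without aged AAV-EGFP replicate 1 the adjusted p was 0.0322 for Irs2 and 0.0368 for Foxo6, and leaving out young AAV-EGFP replicate 1 gave 0.0497 for Irs2, 0.0497 for Foxo6 and 0.0492 for Foxo3. Without aged AAV-EGFP replicate 3 it was 0.0387 for Foxo3, and without aged AAV-B3GNT3 replicate 3 it was 0.0216 for Foxo6. After free RNA was subtracted, the values were 0.67 (adjusted p = 0.0554) for Irs2, 0.85 (0.0524) for Foxo6 and 0.54 (0.0591) for Foxo3. The sizes were thus as large after the subtraction as before it. Of the 17 alternative settings other than the one without dentate granule nuclei, Irs2 passed in 6 and Foxo6 and Foxo3 in 5 each, and the highest adjusted p was 0.181, 0.1995 and 0.209. No member of any class was called with treatment under RLE scaling, finer clustering, subtracted free RNA or only the compared groups in the fit, or without young AAV-EGFP replicate 2 or 3, aged AAV-EGFP replicate 2 or aged AAV-B3GNT3 replicate 1 or 2.

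Igf1r, which was lower with age, was hardly different between the aged groups, with 276, 349 and 313 CPM against 342, 341 and 298 CPM and a log2 fold change of 0.06 ± 0.11 (edgeR adjusted p = 0.750). Irs1 in excitatory neurons was at 0.17 ± 0.12 (adjusted p = 0.424). Foxo1 had 18.8, 38.3 and 27.2 CPM in aged AAV-B3GNT3 mice, within the range of the aged AAV-EGFP samples in all but the highest, and its log2 fold change was 0.51 ± 0.36 (adjusted p = 0.421), or 1.19 (adjusted p = 0.0253) without aged AAV-EGFP replicate 1. Igf1 was at 0.61 ± 0.19 (adjusted p = 0.0908), Insr at 0.02 ± 0.08 and Pik3ca at 0.01 ± 0.09.

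Foxo3 had a fold change above 0 in 9 of 9 classes, from 0.23 in fibroblasts to 0.84 in pericytes, and Foxo1 in 9 of 9, from 0.05 to 0.63. None of these passed, and the classes of a mouse come from 1 library, so they are not separate replicates. In microglia, where Foxo3 was highest, aged AAV-EGFP mice had 259, 249 and 377 CPM and aged AAV-B3GNT3 mice 426, 339 and 348 CPM, with overlap and a log2 fold change of 0.32 ± 0.19 (edgeR adjusted p = 0.542). Irs1 in fibroblasts had 235, 164 and 163 CPM against 265, 282 and 352 CPM, without overlap, and a log2 fold change of 0.70 ± 0.20 (adjusted p = 0.179). That became 0.85 (adjusted p = 0.0346) without aged AAV-EGFP replicate 1 and 0.76 (adjusted p = 0.0311) with no filter on low counts. In the remaining classes of highest level the log2 fold changes were 0.30 ± 0.17 for Foxo1 in astrocytes, 0.42 ± 0.25 for Igf1r in BECs and 0.60 ± 0.32 for Insr in BECs, where 0.279% of genes were called and 13.7% were without overlap. They were -0.33 ± 0.12 for Irs2 in oligodendrocytes, -0.18 ± 0.22 for Pik3ca in pericytes and -0.38 ± 0.16 for Igf1 in inhibitory neurons, and the lowest adjusted p of these 6 was 0.114.

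**Figure D4:**
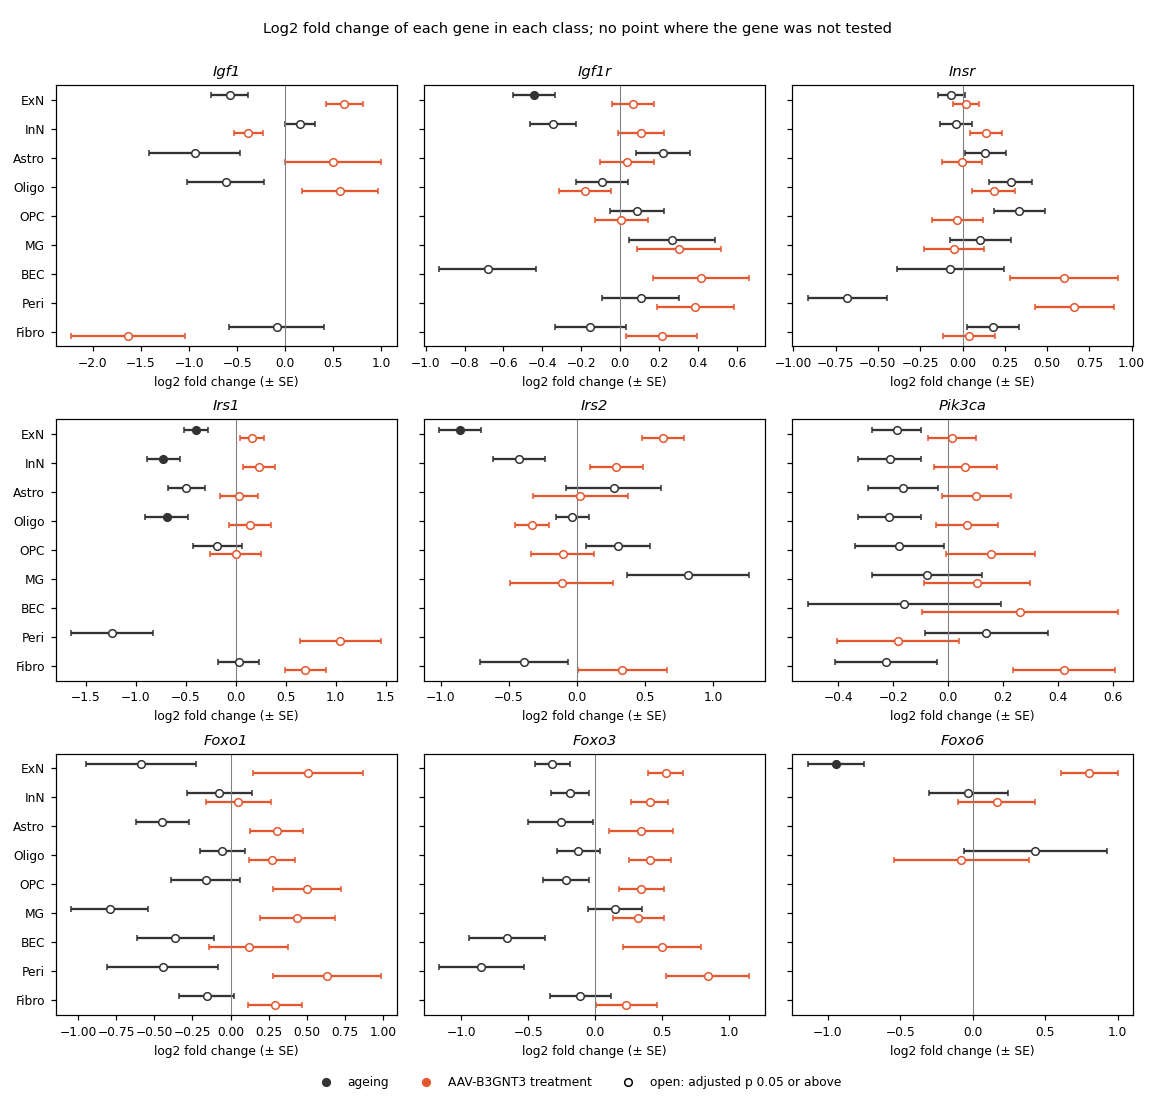
Log2 fold change with its SE for each gene (panels) in each class (rows) for ageing (dark grey) and AAV-B3GNT3 treatment (red), with filled points at an edgeR adjusted p under 0.05. The 6 filled points are all ageing values below 0, and 4 of them are in excitatory neurons. Each panel has its own scale.

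Against young AAV-EGFP mice, aged AAV-B3GNT3 mice showed 0 calls among 67 tests with edgeR, against 1.35% of all tests, 0.891% higher and 0.454% lower. The groups did not overlap in 19 of the 67, against 21.4% of all tests. At an unadjusted p under 0.05 there were 11, against 14.1% of all tests, and DESeq2 called 2, against 2.47%. Igf1r in excitatory neurons was at -0.38 ± 0.11 (edgeR adjusted p = 0.0740), while Irs2 was at -0.23 ± 0.15 (adjusted p = 0.437), Foxo6 at -0.14 ± 0.19 (adjusted p = 0.741) and Foxo3 at 0.20 ± 0.13 (adjusted p = 0.410). A missed threshold does not show that these levels were equal.

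Whether a change differed between classes was tested with excitatory neurons and a second class of the same mice in 1 fit. Of 27 tests for each of the 2 comparisons, against inhibitory neurons, astrocytes and oligodendrocytes, 3 differences passed, all between oligodendrocytes and excitatory neurons, for Irs2 and Foxo6. Across the 3 class pairs 4.96% of genes were called for ageing and 2.2% for treatment. These shares pool pairs that differed. For ageing, an edgeR p of 0.0018 became 0.224 after adjustment against inhibitory neurons (Igf1), and one of 0.0040 became 0.0453 against oligodendrocytes (Foxo6). The ageing change of Irs2 was 0.84 ± 0.15 higher on the log2 scale in oligodendrocytes than in excitatory neurons (edgeR adjusted p = 0.0015). The same difference was 0.98 ± 0.35 for astrocytes (adjusted p = 0.122) and 0.40 ± 0.13 for inhibitory neurons (adjusted p = 0.358). It is thus not shown to be particular to oligodendrocytes. The treatment change of Irs2 in oligodendrocytes was -0.98 ± 0.15 relative to excitatory neurons (adjusted p = 0.0024), with 0.63 in excitatory neurons and -0.33 in oligodendrocytes. Irs2 had 66.5, 60.1 and 60.01 CPM in oligodendrocytes of aged AAV-EGFP mice and 49.8, 44.6 and 53.6 CPM in those of aged AAV-B3GNT3 mice, all lower. Both Irs2 differences passed in all 9 fits that left out a sample. After free RNA was subtracted they were 0.75 and -0.95 and did not pass (adjusted p = 0.145 and 0.260), in fits that called only 0.0611% of genes for ageing and 0.00814% for treatment. For Foxo6 the ageing difference was 1.42 ± 0.43 (adjusted p = 0.0453), which rests on 51 and 65 UMIs of oligodendrocytes in the young and aged AAV-EGFP groups and passed in 1 of 9 fits that left out a sample, the fit without young AAV-EGFP replicate 1. It did not pass with RLE size factors either (1.36, adjusted p = 0.0713), and after free RNA was subtracted it was larger, at 2.01, without passing (adjusted p = 0.353).

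Within neuron subclasses, ageing gave 8 calls among 81 tests, all lower, against 3.67% of all tests called, 1.75% higher and 1.92% lower, and 28 of the 81 did not overlap, against 23.9% of all tests. Treatment gave 3 calls, all higher, against 0.795% called, 0.205% higher and 0.59% lower, and 16 of the 81 did not overlap, against 18.6%. Between aged AAV-B3GNT3 and young AAV-EGFP mice edgeR called 0 of 81, against 0.98% of all tests (0.512% higher, 0.468% lower), with 13 at an unadjusted p under 0.05 (13.2% of all tests) and 0 called by DESeq2 (1.26% of all tests), and 19 of the 81 did not overlap, against 19.5%. Of the 8 ageing calls, 7 were in cortical excitatory neurons and 1 in Lamp5 interneurons. They were 3 of 9 tests in layer 6, 2 of 9 in upper-layer, 2 of 8 in layer 4 and 5 and 1 of 8 in Lamp5 neurons. The share of 3.67% pools all subclasses, and shares for upper-layer neurons and Lamp5 interneurons alone are not given here. In the fits less 1 cluster given below, ageing called 12.4% of genes in layer 6 neurons and 5.26% in layer 4 and 5 neurons.

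In upper-layer neurons Foxo6 had 5.46, 3.69 and 3.64 CPM in young mice and 0.838, 0.883 and 1.22 CPM in aged AAV-EGFP mice, from 85 and 17 UMIs. The log2 fold change was -2.10 ± 0.41 (edgeR adjusted p = 0.0155). Irs2 in the same neurons had 31.6, 27.7 and 36.4 CPM against 17.6, 8.65 and 20.5 CPM, a log2 fold change of -1.03 ± 0.25 (adjusted p = 0.0330). Neither gene's groups overlapped. Leaving out young AAV-EGFP replicate 3 gave an adjusted p of 0.0571 for Foxo6 and 0.131 for Irs2, and without aged AAV-EGFP replicate 2 it was 0.0656 for each of them. For Irs2 it was 0.0729 without young AAV-EGFP replicate 1 and 0.0633 without young AAV-EGFP replicate 2.

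In layer 6 neurons 3 genes were lower in aged mice. Igf1r had 631, 581 and 604 CPM in young mice and 431, 463 and 398 CPM in aged AAV-EGFP mice, a log2 fold change of -0.49 ± 0.11 (edgeR adjusted p = 0.0122) that passed under all 14 settings. Irs2 had 16.3, 13.8 and 14.6 CPM against 10.7, 8.00 and 8.99 CPM, -0.73 ± 0.20 (adjusted p = 0.0344), held by 7 of 14 settings. Foxo1 had 6.68, 7.97 and 4.64 CPM against 3.32, 2.47 and 1.31 CPM, -1.51 ± 0.43 (adjusted p = 0.0370), from 83 and 33 UMIs and held by 8 of 13 settings. Foxo1 had no test here after free RNA was subtracted. The free RNA estimate in these neurons was 6.81 to 9.05% of UMIs in young and 3.76 to 6.96% in aged AAV-EGFP mice. Its part in the Foxo1 call was not tested. For Irs2 and Foxo1 the call was lost in each fit without a young AAV-EGFP sample and without aged AAV-EGFP replicate 2 or 3, where the adjusted p was 0.0562 to 0.152. The Irs2 call was also lost with DESeq2 (-0.72, adjusted p = 0.0806) and after free RNA was subtracted (-0.73, adjusted p = 0.0599). Without the cluster led by Svil, which held 26.1 to 39.3% of this subclass in young and 15.3 to 34.6% in aged AAV-EGFP mice, the 3 genes still passed, with -0.52 ± 0.12 for Igf1r (adjusted p = 0.0095), -0.74 ± 0.22 for Irs2 (0.0360) and -1.74 ± 0.49 for Foxo1 (0.0244), where 12.4% of genes were called. That fit was added after the data were seen. In layer 4 and 5 intratelencephalic neurons Igf1r had 262, 230 and 243 CPM against 178, 177 and 137 CPM, -0.57 ± 0.14 (adjusted p = 0.0242). Irs2 there had 43.3, 38.7 and 28.5 CPM against 14.6, 16.7 and 24.7 CPM, -0.97 ± 0.26 (adjusted p = 0.0395). None of these groups overlapped. The Igf1r call was lost without young AAV-EGFP replicate 1 or 3 and without aged AAV-EGFP replicate 2 or 3 (adjusted p = 0.0706, 0.0919, 0.0591 and 0.1001), and the Irs2 call in all but 4 of the 9 such fits, with adjusted p from 0.0612 to 0.152 where it was lost. With DESeq2 that of Irs2 was lost as well (-0.98, adjusted p = 0.0567).

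In Lamp5 interneurons, where Irs1 was highest among neurons, it had 144, 233 and 168 CPM in young mice and 113, 76.5 and 100.01 CPM in aged AAV-EGFP mice. All aged samples were lower, with a log2 fold change of -0.94 ± 0.20 (edgeR adjusted p = 0.0204). Vip interneurons gave -0.74 ± 0.19 (adjusted p = 0.0840) for the same gene. The Lamp5 call was lost without young AAV-EGFP replicate 2 (adjusted p = 0.120) and without aged AAV-EGFP replicate 2 (0.166) or 3 (0.0693). Igf1r, Irs1, Irs2 and Foxo3 each had a fold change below 0 in all 10 subclasses, with no call beyond those named. Pik3ca and Foxo1 were below 0 in 9 of 10, Insr in 8 of 10, Foxo6 in 4 of 4 and Igf1 in 3 of 7. The subclasses share the libraries of the mice and are not separate replicates.

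Foxo3 and Foxo6 were higher with treatment in layer 6 neurons. Foxo3 had 71.6, 62.5 and 84.1 CPM in aged AAV-EGFP mice and 138, 148 and 96.0 CPM in aged AAV-B3GNT3 mice, a log2 fold change of 0.81 ± 0.16 (edgeR adjusted p = 0.0221). Foxo6 had 5.54, 5.67 and 6.18 CPM against 12.1, 13.6 and 11.1 CPM, 1.07 ± 0.24 (adjusted p = 0.0352), from 87 and 110 UMIs. The groups did not overlap in either gene. Both calls were lost without aged AAV-EGFP replicate 2 (adjusted p = 0.144 and 0.168), aged AAV-B3GNT3 replicate 1 (0.109 and 0.131) or aged AAV-B3GNT3 replicate 2 (0.147 and 0.197), and that of Foxo6 without young AAV-EGFP replicate 3 (0.0510). In this subclass the number of nuclei was 269, 784 and 452 in aged AAV-EGFP and 235, 314 and 241 in aged AAV-B3GNT3 mice. Without the cluster led by Svil (27.2 to 36.9% of the subclass in aged AAV-B3GNT3 mice), the log2 fold change was 0.95 ± 0.17 for Foxo3 (adjusted p = 0.0051) and 1.149 ± 0.31 for Foxo6 (0.0477), where 3.48% of genes were called.

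The third treatment call was Igf1 in layer 4 and 5 intratelencephalic neurons, with 8.65, 6.79 and 6.86 CPM in aged AAV-EGFP mice, 16.6, 32.3 and 46.4 CPM in aged AAV-B3GNT3 mice and 10.8, 11.8 and 23.2 CPM in young mice. The log2 fold change over this subclass was 2.09 ± 0.38 (edgeR adjusted p = 0.0119), from 36 and 110 UMIs in the aged groups, and it was lost without aged AAV-EGFP replicate 2 (adjusted p = 0.0859) and without aged AAV-B3GNT3 replicate 2 (0.0908). Nearly all of these UMIs came from 1 cluster of 131 nuclei that had Igf1 as its second leading gene. That cluster held 17, 12 and 1 nuclei and 13, 13 and 8 Igf1 UMIs in aged AAV-EGFP mice, and 10, 33 and 20 nuclei and 20, 34 and 55 Igf1 UMIs in aged AAV-B3GNT3 mice. The remaining 886 nuclei of the subclass held 0, 0 and 2 Igf1 UMIs in aged AAV-EGFP mice and 0, 0 and 1 in aged AAV-B3GNT3 mice, and Igf1 did not pass the filter there. Igf1 was among the genes used to cluster all nuclei, and the genes used to cluster within excitatory neurons were not recorded. A nucleus may thus have been placed in that cluster by its own Igf1 UMIs, and the Igf1 call of this subclass is given as a description. Its Igf1 UMIs did not follow its number of nuclei in every sample, and the part of that number in the call was not tested. In the remaining nuclei 0.486% of genes were called with treatment and 5.26% with ageing, and the ageing calls of Igf1r (-0.59 ± 0.14, adjusted p = 0.0173) and Irs2 (-0.91 ± 0.25, adjusted p = 0.0318) passed there. This fit, too, was added after the data were seen. Interneurons included the named neuron subclasses with the highest Igf1. There the treatment change was below 0 and did not pass, with -0.42 ± 0.18 in Vip interneurons (adjusted p = 0.310) and -1.03 ± 0.34 in Pvalb interneurons (adjusted p = 0.117). Foxo3 had a fold change above 0 in all 10 subclasses, as had Irs1 and Foxo1, but the subclasses share the libraries of the mice. In Sst interneurons that of Foxo3 was 0.76 ± 0.17 (adjusted p = 0.0675), with 53.1, 44.5 and 56.3 CPM against 106, 84.9 and 70.1 CPM. Dentate granule neurons and striatal neurons, the neurons richest in Foxo1, showed no call for any member in either comparison.

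A further 86 genes of the pathway were taken as 7 lists, of ligands and binding proteins, receptors and adaptors, phosphoinositide 3-kinase subunits, kinases downstream, brakes, FOXO regulators and FOXO targets. With ageing 23 of 560 tests of these genes in the 9 classes were called, 6 higher and 17 lower, which is 4.11% against 8.08% of all genes. By list, the receptors and adaptors had 5 calls of 83, all lower, the downstream kinases 4 of 118, all lower, and the FOXO factor and regulators 5 of 99, all lower. FOXO targets had 5 higher and 2 lower of 145, ligands and binding proteins 1 higher of 29, brakes 1 lower of 50 and kinase subunits 0 of 36. In excitatory neurons 5 of 77 genes were called, all lower, where 14.1% of all genes were called, with a median log2 fold change of -0.15 against 0.02 over all genes. In oligodendrocytes it was 9 of 75, 4 of them higher, where 20% of all genes were called. With treatment 2 of 560 were called, or 0.357% against 2.25% of all genes, and DESeq2 called 8, or 1.43% against 4.12% of all genes.

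Stk4, the kinase MST1 that phosphorylates FOXO factors under stress, was lower with age in 3 classes. It fell from 51.3 ± 3.93 to 29.0 ± 7.29 CPM in excitatory neurons, a log2 fold change of -0.83 ± 0.16 (edgeR adjusted p = 0.0110), and by 0.70 on the log2 scale in inhibitory neurons (SE 0.18, adjusted p = 0.0488) and 0.64 in oligodendrocytes (SE 0.19, adjusted p = 0.0312). Sgk1, a kinase related to AKT that also phosphorylates FOXO3, fell from 137 ± 7.89 to 94.0 ± 8.63 CPM in excitatory neurons, -0.55 ± 0.10 (adjusted p = 0.0084), under every setting. Its fall in astrocytes (-0.89 ± 0.27, adjusted p = 0.0481) turned to 0.53 (adjusted p = 0.798) after free RNA was subtracted. Among FOXO targets, Map1lc3b, an autophagy gene, rose in astrocytes by 1.04 ± 0.25 (adjusted p = 0.0155), and Btg1, a growth inhibitor, rose in inhibitory neurons by 1.0 ± 0.17 (adjusted p = 0.0184). With treatment, in excitatory neurons, Klf15, a metabolic transcription factor, rose from 3.72 ± 1.13 to 7.24 ± 1.13 CPM (0.96 ± 0.22, adjusted p = 0.0472). Cited2 fell from 2.95 ± 0.546 to 1.42 ± 0.363 CPM (-1.07 ± 0.25, adjusted p = 0.0472). Of these 9 results, all but that of Sgk1 in excitatory neurons lost their call in some fit that left out a sample, Klf15 and Cited2 in 6 of the 9 fits each. After free RNA was subtracted 6 of the 9 lost it: beside Sgk1 in astrocytes these were Stk4 in inhibitory neurons (-0.69, adjusted p = 0.0740) and oligodendrocytes (-0.70, 0.0622), Map1lc3b (1.03, 0.0780), Klf15 (0.92, 0.0733) and Cited2 (-1.17, 0.0517). Map1lc3b also lost its call without doublet removal (0.90, adjusted p = 0.0837). Sgk1 in astrocytes lost it without doublet removal (0.0959), with RLE scaling (0.0524) and with only the compared groups in the fit (0.0729), and the last also took that of Klf15 (0.0762) and Cited2 (0.0800).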

How the data were processed

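Nuclei sorted from cortex and hippocampus were profiled with 10x 3′ chemistry, 1 library per mouse. The deposited values are raw UMI counts for each gene in each nucleus, produced by the authors with Cell Ranger on mm10 (GRCm38). The submitters' processing notes give version 4.0.0 and the matrix headers 7.2.0, and whether intronic reads were counted is not given in the sources used here. The free RNA correction and doublet removal that the study describes were not in these counts.

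Nuclei outside 200 to 5000 genes or above 10% mitochondrial UMIs were removed, doublets were marked (5.07 to 8.21% of barcodes per sample), and nuclei were clustered (2000 variable genes, 15 components, 20 neighbours, resolution 0.3) and named from marker lists. A cluster with both Slc17a6 and Gad genes was left unnamed by a rule set after the clusters were seen. Counts were summed per mouse and class, with at least 10 nuclei, and tested with edgeR 4.0.16 in R 4.3.3 (quasi-likelihood, TMM, filterByExpr at 10, all 9 samples in 1 fit, adjusted p under 0.05). DESeq2 1.42.0 was an alternative, beside RLE scaling, no filter, finer clusters, no doublet removal, subtracted free RNA, fits of only the groups compared, a replicate block and fits without each sample. Fits without 1 cluster of the layer 6 neurons, without 1 cluster of the layer 4 and 5 neurons without dentate granule nuclei and without striatal nuclei were added after the data were seen. The SE of an edgeR fold change was derived from the test, as the absolute log2 fold change divided by the square root of the F statistic. The scripts were tested on simulated data. Fold changes were given for members called in a class, for each member in its class of highest level and for Foxo1 and Foxo3 in excitatory neurons, and, in each direction and comparison, for the 2 other pathway genes called in the most classes (ties by adjusted p). Further values of members were chosen after they were seen. The members and lists were chosen with earlier results of these data known. Members passed the filter in 67 tests of a gene in a class. Foxo6 was left out by it in every class but neurons and oligodendrocytes. Replicates of a group differed by more than sampling noise in every class (chi-square per degree of freedom from 1.55 to 28.8). The precision is limited by 3 mice a group. One gene among those with a similar pattern is not reported here.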

Additional observations from a re-analysis of the deposited data

Results flagged for a closer look

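The change of 2 genes differed between oligodendrocytes and excitatory neurons by an interaction test within the same mice (edgeR quasi-likelihood test, Benjamini-Hochberg adjustment). For Irs2 the ageing log2 fold change was 0.84 ± 0.15 higher in oligodendrocytes (adjusted p = 0.0015), with -0.03 in oligodendrocytes and -0.86 in excitatory neurons. Its treatment change was -0.98 ± 0.15 relative to excitatory neurons (adjusted p = 0.0024), with -0.33 against 0.63. For Foxo6 the ageing change was 1.42 ± 0.43 higher in oligodendrocytes (adjusted p = 0.0453), with 0.43 against -0.94. That call passed in only 1 of the fits that left out a sample. The calls were 2 of 27 tests for ageing and 1 of 27 for treatment. Over the 3 class pairs, which differed, 4.96% and 2.2% of genes were called. For Irs2 the ageing difference was also 0.98 ± 0.35 in astrocytes (adjusted p = 0.122), so it is not shown to be particular to oligodendrocytes. The free RNA estimate in oligodendrocytes was 30.2 to 34.9% of UMIs in young, 17.0 to 28.9% in aged AAV-EGFP and 28.3 to 35.4% in aged AAV-B3GNT3 mice. After free RNA was subtracted the 3 differences kept their sign, at 0.75 and -0.95 for Irs2 and 2.01 for Foxo6, and none passed (adjusted p = 0.145, 0.260 and 0.353), where 0.0611% of genes were called for ageing and 0.00814% for treatment.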

How the results depend on the processing

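The number of member calls with ageing was 6 and became 3 after free RNA was subtracted and 1 to 10 when a sample was left out, with 1 when that was young AAV-EGFP replicate 3 and 10 when it was aged AAV-EGFP replicate 1. It was 2 when it was aged AAV-EGFP replicate 2 or 3 and 3 when it was young AAV-EGFP replicate 1. Treatment calls of members, 0 in edgeR's fit, became 5 with no filter on low counts, 3 with DESeq2, 1 without doublet removal and 0 to 5 when a sample was left out, with 5 when it was aged AAV-EGFP replicate 1. In aged AAV-B3GNT3 against young AAV-EGFP mice the 0 calls became 3 with no filter, 2 with DESeq2, 2 with only the groups compared and 0 to 2 when a sample was left out. The 23 ageing calls of other pathway genes became 45 with no filter, 11 after free RNA was subtracted and 7 to 66 when a sample was left out. Their 2 treatment calls became 21 with no filter, 8 with DESeq2, 4 without doublet removal, 0 after free RNA was subtracted, 0 with only the groups compared and 0 to 22 when a sample was left out. The 3 differences between classes became 9 with no filter, 0 after free RNA was subtracted and 2 to 8 when a sample was left out. In these settings the share of all such tests called for ageing, 4.96%, became 5.06%, 0.0611% and 2.63 to 6.99%. That for treatment, 2.2%, became 2.86%, 0.00814% and 0.611 to 2.88%. The 11 subclass calls became 21 with no filter and 1 to 16 when a sample was left out, with 1 for aged AAV-EGFP replicate 2 and 16 for aged AAV-EGFP replicate 1. Of all subclass tests, the share called with ageing went from 3.67% to 3.61% with no filter. It was 0.731 to 7.84% when a sample was left out, with 0.742% and 7.84% for these 2 samples. With treatment 0.795% became 1.87% with no filter and 0.0104 to 2.27% when a sample was left out. The share of all tests called in the classes moved as well. For ageing 8.08% became 6.47% with no filter, 4.23% after free RNA was subtracted and 2.79 to 14.2% when a sample was left out, the last without aged AAV-EGFP replicate 1, where other pathway genes had 11.7%. For treatment 2.25% became 3.30% with no filter, 4.12% with DESeq2, 1.81% without doublet removal, 0.688% after free RNA was subtracted, 1.39% with only the groups compared and 0.109 to 4.27% when a sample was left out. For the third comparison 1.35% became 2.27% with no filter, 2.47% with DESeq2, 2.84% with only the groups compared and 0.261 to 2.49% when a sample was left out.

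In samples with the same replicate number, deviations from the group means correlated from -0.32 to 0.34 (median 0.02), with 17 of 81 correlations above 0.1. For replicate 1, young AAV-EGFP and aged AAV-B3GNT3 samples had 0.34 in excitatory and in inhibitory neurons. Aged AAV-EGFP and aged AAV-B3GNT3 samples of that number had -0.32 and -0.16. Samples with unlike numbers were not compared, so whether the number marks a shared batch was not tested. With the replicate block, members had 4 ageing calls and 1 treatment call, and other pathway genes 4 treatment calls. Of all tests in the classes, 7.49% were then called for ageing and 2.32% for treatment. The ageing calls of Irs1 in excitatory neurons (adjusted p = 0.0645) and inhibitory neurons (0.0623) were lost under it, as were those of Irs2 in layer 4 and 5 neurons (0.0526) and of Stk4 in inhibitory neurons (0.0689) and the treatment calls of Klf15 (0.0559) and Cited2 (0.0618), while Irs2 in excitatory neurons passed with treatment (0.0387).

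Signs turned for results that had not passed. With ageing, Foxo3 in microglia was -0.083 without doublet removal and -0.084 to 0.266 when a sample was left out. Irs1 in fibroblasts was -0.032 with no filter, -0.0010 after free RNA was subtracted and -0.12 to 0.171 when a sample was left out. Insr in BECs was -0.305 to 0.172 and Igf1 in inhibitory neurons -0.080 to 0.295 under the same omissions. With treatment, leaving out samples gave -0.016 to 0.152 for Igf1r in excitatory neurons, -0.0059 to 0.175 for Igf1r in layer 4 and 5 neurons and -0.033 to 0.382 for Irs1 in oligodendrocytes. The exception that had passed was Sgk1 in astrocytes with ageing, at 0.53 after free RNA was subtracted. The causes were not tested. BECs, with the fewest nuclei, and genes with few UMIs limit what could be detected.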
